A study of Mus musculus with 6 samples.

Results

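The 6 genes described here encode actin crosslinkers: the filamins Flna and Flnc, and the alpha-actinins Actn1, Actn2, Actn3 and Actn4. They were found by symbol in a table of 45777 genes, where each had 1 entry, and all 6 passed the filter on low counts that left 17874 genes. Striatal RNA came from 6-week-old offspring of the outbred ICR strain, in 2 groups with 3 libraries each. The MPH-sired group had sires given methylphenidate (MPH), a blocker of dopamine and noradrenaline reuptake, at 15 mg/kg, and the saline-sired group had sires given saline at 10 mL/kg. Both were given subcutaneously for 21 days from 6 weeks of age of the sires, which were then mated with untreated females. Each group held 2 females and 1 male per the labels. How many sires or litters stood behind the 3 animals of a group is not stated, and littermates are possible. The p-values cover the spread among these libraries alone.

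Filamins are long, flexible dimers that bind actin filaments at one end and carry a chain of immunoglobulin-like repeats that docks membrane receptors, integrins and ion channels. Alpha-actinins are antiparallel rod-shaped dimers with an actin-binding site at each end. In muscle they hold actin filaments at the Z-disc, and in neurons they sit in dendritic spines, where alpha-actinin-2 binds NMDA receptor subunits and CaM kinase II. Filamin A is widespread and strong in vessel walls, meninges and immune cells, and it binds the dopamine D2 and D3 receptors. Flnc and Actn3 are best known from striated muscle.

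The genes were chosen by the group difference in read counts itself. Flna and Actn2 had stood among the genes with lower values in the MPH-sired group in earlier results from the same libraries, and the other members were added as relatives. In the fit used here they held places 15 and 16 among genes with a negative fold change, ordered by unadjusted p. The group differences of the members are therefore given as a description, and no other measure independent of that contrast was at hand to test them.

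The RefSeq start regions of the 2 members whose groups did not overlap are printed first, because they show which short factor-binding letters lie near each start. Of the 6 members, 5 had a RefSeq window in build GRCm38.p6 and Actn3 did not. Each sequence below holds the 250 bases before the annotated start, 5′ to 3′ on the strand of the gene. The Flna window is chrX:74246535-74246784 (minus strand) and the Actn2 window is chr13:12340733-12340982 (minus strand). Capitals mark CATTCC, read on either strand, which TEAD factors bind, and CACGTG, the E-box bound by basic helix-loop-helix factors.
Flna: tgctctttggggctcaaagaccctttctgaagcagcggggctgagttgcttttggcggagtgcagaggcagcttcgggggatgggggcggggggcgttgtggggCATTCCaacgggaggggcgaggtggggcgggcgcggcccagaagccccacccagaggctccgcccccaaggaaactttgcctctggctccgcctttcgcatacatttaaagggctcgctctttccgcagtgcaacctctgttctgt
Actn2: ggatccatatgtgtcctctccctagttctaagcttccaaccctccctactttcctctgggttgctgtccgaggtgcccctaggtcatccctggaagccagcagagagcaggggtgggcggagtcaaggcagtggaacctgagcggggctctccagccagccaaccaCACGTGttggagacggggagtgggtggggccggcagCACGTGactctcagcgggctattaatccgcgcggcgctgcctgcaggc
The Flna window held 1 CATTCC, starting 146 bases before the start, and no CACGTG. The Actn2 window held no CATTCC and 2 copies of CACGTG, starting 84 and 48 bases before the start. Among 32851 RefSeq windows of the same length, 12.6% held CATTCC and 6.02% held CACGTG on either strand. The GC box GGGCGG is bound by SP and KLF factors. On either strand it occurred 3 times in the Flna window and 1 time in the Actn2 window, and 32.7% of all windows held at least 1. It also occurred in the Actn1 window (4 times), the Actn4 window (3 times) and both Flnc windows, which overlap (3 times each). The Flna and Actn2 windows were 63.6% and 63.2% G or C. The median of all windows was 52.4%, so that share is a loose comparison for these 2 windows. Neither window held TATAAA (12.4% of all windows, either strand) or a CArG box, the site of serum response factor (1.47%). None of these matches overlapped another in either window. The Actn4 window and 1 of the 2 Flnc windows also held CATTCC, and that of Actn1 did not. A match describes letters only. The annotated Flna gene extends upstream of this start, beyond the window shown.

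Total counts lay between 31360042 and 38844724 per library. Libraries are named by group and by the number in their column name. In a principal component analysis, the leading axis held 28.3% of the variance. It set saline-sired libraries 3 (28.0) and 4 (42.5) apart from the other 4 (-21.6 to -11.3). Y-linked transcripts summed to 176 CPM (counts scaled by library size) in MPH-sired library 4 and 180.1 CPM in saline-sired library 4, against at most 0.213 CPM elsewhere. Medium spiny neuron genes, which mark the projection neurons of the striatum, were present in every library, led by Pde10a.

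Set against each other per length, as CPM divided by the longest transcript in kb, the members fell into 3 ranges. Actn1 was at 48.2 ± 3.02 CPM per kb in the MPH-sired group and 51.0 ± 1.22 in the saline-sired group (SD, n = 3 each). Actn2 was at 37.6 ± 2.36 and 47.3 ± 2.44 CPM per kb in the MPH-sired and the saline-sired group. Actn4 was at 30.9 ± 1.55 CPM per kb in the MPH-sired and 29.2 ± 2.18 in the saline-sired group. By transcript length Actn2, the form of muscle and spines, stood between the non-muscle forms. Flna was lower, at 8.42 ± 0.823 CPM per kb in the MPH-sired and 11.4 ± 0.872 in the saline-sired group. It lay below these alpha-actinins in every library. Flnc and Actn3 stood far below, with Flnc at 0.136 ± 0.00783 CPM per kb in the MPH-sired and 0.122 ± 0.0219 in the saline-sired group. Actn3 was at 0.177 ± 0.0582 CPM per kb in the MPH-sired and 0.0885 ± 0.0791 in the saline-sired group. The order Actn1, Actn2, Actn4, Flna was the same in all 6 libraries by transcript length. By coding length, Actn4 lay above Actn2 in MPH-sired libraries 2 and 6. Actn1 and Actn2 did not overlap in the MPH-sired libraries but did in the saline-sired ones, and Flnc and Actn3 changed places between libraries.

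**Figure D1:**
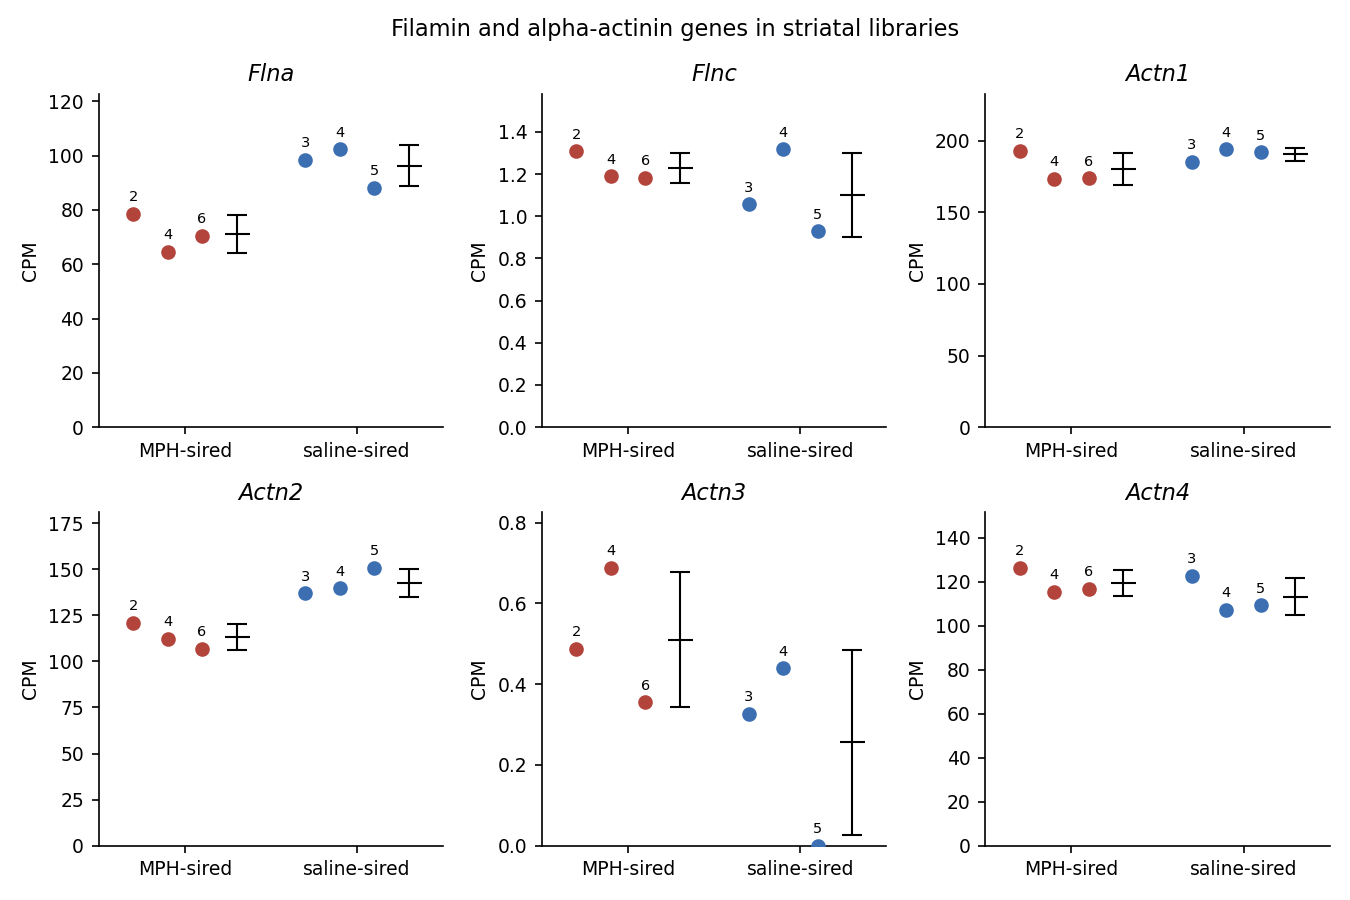
CPM of each gene in the 3 MPH-sired (red) and 3 saline-sired (blue) libraries, numbered by library, with the mean and SD as a black bar beside the points; each panel has its own axis from 0. Flna spans 64.6 to 78.5 CPM in the MPH-sired group and 88.1 to 102 CPM in the saline-sired group, Actn2 spans 107 to 121 and 137 to 151 CPM, and the groups of the other 4 genes overlap.

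Flna encodes filamin A and lies on chromosome X (Gene ID 192176, 74223461 to 74249854, minus strand; mm10 here and below). It had 2578, 2064 and 2384 counts in MPH-sired libraries 2, 4 and 6, and 3914, 3260 and 2747 counts in saline-sired libraries 3, 4 and 5. Scaled to library size, these were 78.5, 64.6 and 70.5 CPM in the MPH-sired libraries and 98.5, 102 and 88.1 CPM in the saline-sired ones. Every MPH-sired library was below every saline-sired library, the closest pair being MPH-sired library 2 and saline-sired library 5. The means were 71.2 ± 6.96 CPM in the MPH-sired and 96.3 ± 7.37 CPM in the saline-sired group (SD, n = 3 each), 26.1% lower in the MPH-sired group. The log2 fold change, MPH-sired minus saline-sired, was -0.44 (SE 0.09), which did not pass the test over all genes (edgeR quasi-likelihood test, Benjamini-Hochberg adjusted p = 0.376). The library with Y-linked transcripts was the lowest of the MPH-sired group and the highest of the saline-sired group. Without library 4 of each group, an alternative added after the values were seen, the log2 fold change of Flna was -0.32 (SE 0.10, edgeR adjusted p = 0.888).

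Flnc encodes filamin C, which stabilises the sarcomere at Z-discs and the membrane of muscle fibres (Gene ID 68794, chromosome 6, 29433153 to 29461889, plus strand). Its reads were few, 43, 38 and 40 counts in the MPH-sired libraries and 42, 42 and 29 counts in the saline-sired ones. In CPM it was at 1.31, 1.19 and 1.18 in MPH-sired libraries 2, 4 and 6 and at 1.06, 1.32 and 0.930 in saline-sired libraries 3, 4 and 5. The groups overlapped, with the highest and the lowest value both in the saline-sired group. The log2 fold change was 0.16 (SE 0.27, edgeR adjusted p = 0.894), so its error was larger than its size. The Flna and Flnc transcripts matched at 70.4% identity over 6463 nucleotides, with no stretch that met the limit for near-identical copies (95% over 200 nucleotides).

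Actn1 encodes the non-muscle alpha-actinin of stress fibres and cell-matrix contacts (Gene ID 109711, chromosome 12, 80167542 to 80260420, minus strand). It was at 193, 174 and 174 CPM in MPH-sired libraries 2, 4 and 6 and at 185, 194 and 192 CPM for saline-sired libraries 3, 4 and 5. MPH-sired library 2 lay among the saline-sired values, and the other MPH-sired libraries lay below them. The log2 fold change was -0.08 (SE 0.06, edgeR adjusted p = 0.734). In the GENCODE annotation, 363 bases of Actn1 exons overlap Gm47766 and 88 overlap Gm47767, both on the opposite strand. No source used here states if counting was strand-specific, so reads of these stretches cannot be told apart.

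Actn4 encodes the other non-muscle alpha-actinin, found at cell edges and in nuclei (Gene ID 60595, chromosome 7, 28893248 to 28962351, minus strand). It was at 127, 115 and 117 CPM in the MPH-sired libraries and at 123, 107 and 109 CPM for saline-sired libraries 3, 4 and 5. The groups overlapped because of saline-sired library 3. The log2 fold change was 0.08 (SE 0.07, edgeR adjusted p = 0.775), opposite in sign to that of Actn1 and Actn2. A stretch of 316 bases in its exons overlaps Capn12 on the opposite strand, which leaves that part of its count uncertain.

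Actn2 encodes alpha-actinin-2, the form shared by heart, skeletal muscle and dendritic spines (Gene ID 11472, chromosome 13, 12269426 to 12340732, minus strand). It had 3971, 3591 and 3608 counts in MPH-sired libraries 2, 4 and 6, and 5446, 4446 and 4704 counts in saline-sired libraries 3, 4 and 5. In CPM these were 121, 112 and 107 in the MPH-sired and 137, 139.6 and 151 in the saline-sired libraries. The groups did not overlap, and here saline-sired library 5 was the highest of all, whereas for Flna it was the lowest of its group. The means were 113 ± 7.11 CPM in the MPH-sired and 143 ± 7.35 CPM in the saline-sired group (SD, n = 3 each), 20.5% lower in the MPH-sired group. The log2 fold change was -0.33 (SE 0.07), which did not pass the test over all genes (edgeR adjusted p = 0.376). No annotated exon of another gene overlapped those of Actn2.

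Actn3 encodes the alpha-actinin of fast muscle fibres (Gene ID 11474, chromosome 19, 4861216 to 4877909, minus strand). It had 16, 22 and 12 counts in MPH-sired libraries 2, 4 and 6 and 13, 14 and 0 counts in saline-sired libraries 3, 4 and 5. A count of 0 in saline-sired library 5 allows a level of up to 0.0962 CPM (3 counts, counting error only). The other 5 libraries lay between 0.327 and 0.689 CPM, and the groups overlapped. The log2 fold change was 0.97 (SE 0.80, edgeR adjusted p = 0.752), and without saline-sired library 5 it was 0.43 (SE 0.51). Of 11 skeletal muscle genes, Tnni2 was at 0 in every library. The 10 genes other than Pvalb, which is also an interneuron gene, summed to 7.73, 6.89 and 6.30 CPM in the MPH-sired libraries and to 6.47, 5.24 and 5.64 CPM in the saline-sired ones. Their part in the Actn3 and Flnc counts was not tested.

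**Figure D2:**
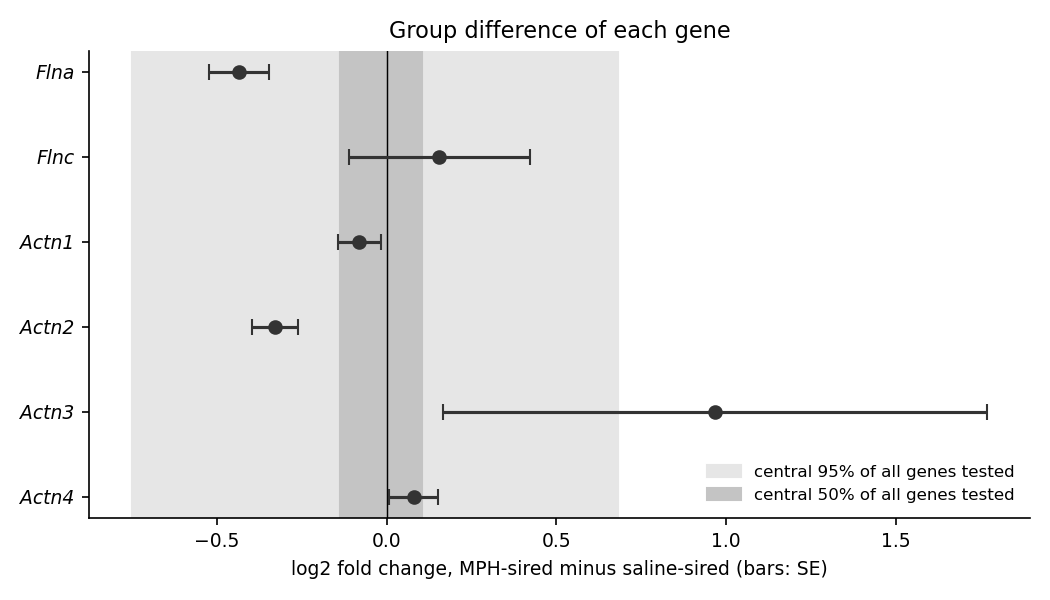
Log2 fold change of each gene, MPH-sired minus saline-sired, with its SE; the grey bands hold the central 50% and 95% of all 17874 genes tested. Flna at -0.44 and Actn2 at -0.33 lie outside the inner band (-0.14 to 0.10) and inside the outer band (-0.75 to 0.68), and Actn3 lies beyond the outer band with the widest error.

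The makeup of the alpha-actinin total was compared within each library, which removes the scaling to library size. Actn2 made up 32.2, 32.8 and 31.6% of the summed alpha-actinin level per kb in MPH-sired libraries 2, 4 and 6, against 35.8, 36.7 and 38.6% in saline-sired libraries 3, 4 and 5. Actn4 made up 26.2, 26.2 and 26.9% in the MPH-sired libraries, against 25.0, 22.0 and 21.7% in the saline-sired ones. Neither gene's shares overlapped between the groups, with Actn2 lower and Actn4 higher in the MPH-sired group. Actn1 made up 41.3 ± 0.365% in the MPH-sired and 40.0 ± 1.09% in the saline-sired group (SD, n = 3 each), with overlapping groups, and Actn3 at most 0.210% in any library. The ratio of Actn2 to Actn1 per kb was 0.776, 0.803 and 0.762 in the MPH-sired and 0.916, 0.891 and 0.974 in the saline-sired libraries. Actn2 was picked for its lower values in the MPH-sired group, so its share and this ratio repeat that choice and are no test. Shares always sum to the whole, so a lower share of Actn2 by itself makes those of the others higher. Alpha-actinin transcripts matched each other at 74.7% (Actn3 and Actn4) to 80.8% (Actn1 and Actn4) identity over most of their coding length, and Gm6101 matched Actn4 at 84.0% over 1938 nucleotides.

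**Figure D3:**
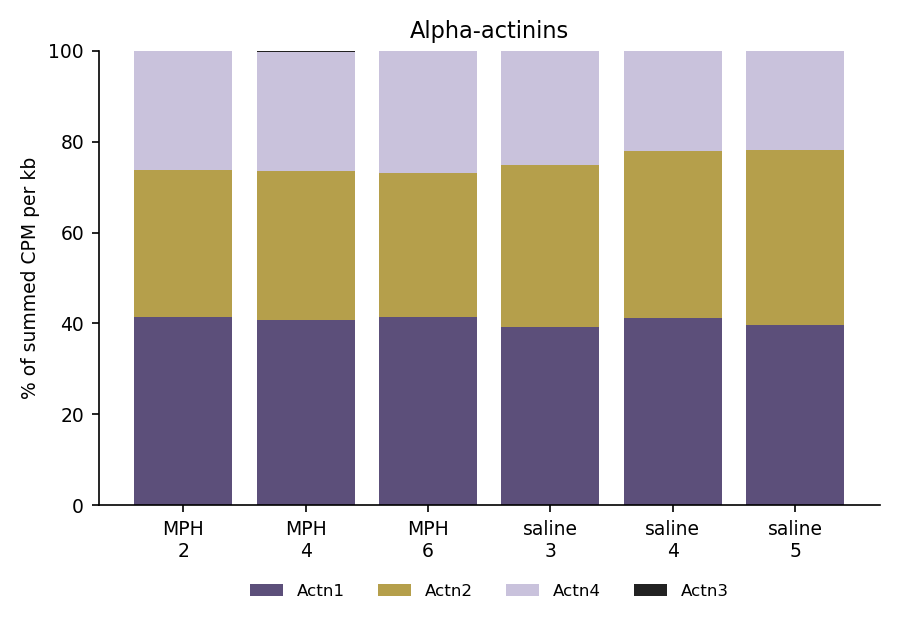
Share of each alpha-actinin gene, in percent of their summed CPM per kb, for each library, with the MPH-sired libraries on the left; each bar adds up to the whole. Actn2 takes 31.6 to 32.8% in the MPH-sired and 35.8 to 38.6% in the saline-sired libraries. It was picked for lower values in the MPH-sired group, so this separation is no test.

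Over the whole table, 0.0224% of genes were lower and 0 were higher at an edgeR adjusted p under 0.05, and 0 of the 6 members were called. At an unadjusted p under 0.05 Flna and Actn2 were 2 of 6, both lower, beside 3.95% of all genes lower and 5.07% higher at that limit. The groups did not overlap, with MPH-sired lower, for these 2 members and for 7.01% of all genes, and with MPH-sired higher for 7.84% of all genes and 0 members. DESeq2 called both, Flna at -0.43 (DESeq2 adjusted p = 0.00364) and Actn2 at -0.33 (DESeq2 adjusted p = 0.0088), beside 0.264% of the genes it gave an adjusted p called lower and 0.937% called higher. It gave none to Flnc and Actn3. Since the members were picked with this contrast known, nothing is read from these counts.

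Markers of striatal neurons were also at lower sums in the MPH-sired group, as Actn2 was. The summed medium spiny neuron markers lay at 9448 to 10559 CPM in the MPH-sired and 11143 to 11955 CPM in the saline-sired libraries, with 14 of 14 fold changes negative (median -0.20). In bulk tissue, fewer cells of a type and less RNA per cell cannot be told apart. Relative to that sum, Actn2 was at 1.08 to 1.14% in the MPH-sired and 1.17 to 1.26% in the saline-sired libraries, without overlap. Flna, over the same sum, was at 0.623 to 0.747% in the MPH-sired and 0.738 to 0.884% in the saline-sired libraries, with overlap. Both genes were picked on this contrast, and the part of neuron content in their levels was not tested. Cortical excitatory neuron markers, led by Nrgn, lay at 2350 to 2569 CPM in the MPH-sired and 1611 to 2104 CPM in the saline-sired libraries, with 13 of 13 positive (median 0.78). That median was 0.51 when saline-sired library 4 was left out, and leaving out saline-sired library 5 gave 1.22. It was 0.24 when saline-sired libraries 3 and 4 were both left out. With the cortical level as a covariate, the log2 fold change of Actn2 was -0.37 (SE 0.10) and that of Flna -0.30 (SE 0.12), both at an edgeR adjusted p of 0.989. That covariate was the mean log2 CPM of the markers, not their sum. The cortical sums did not overlap between the groups, and 13 of 13 markers had positive fold changes. A fit on 6 libraries can hardly separate such a covariate from group.

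Flna was set beside the markers of cells in which it is abundant. Mural cell markers, led by Rgs5, summed to 186 to 216 CPM in the MPH-sired and 190.0 to 217 CPM in the saline-sired libraries, with 9 of 13 negative (median -0.03). Rgs5, at means of 99.5 CPM (MPH-sired) and 100.2 CPM (saline-sired), weighs most in that sum. Low markers moved further, with Des at -0.76 (SE 0.26), Tagln at -0.70 (SE 0.31) and Acta2 at -0.53 (SE 0.28), but Lmod1 at 1.05 (SE 0.50). As a covariate, the mural level was the mean log2 CPM of the tested markers, where each low marker weighs as much as Rgs5. With it the log2 fold change of Flna was -0.34 (SE 0.08, edgeR adjusted p = 0.992). Endothelial markers, led by Flt1, summed to 225 to 286 CPM and 236 to 273 CPM in the MPH-sired and saline-sired libraries, with 6 of 12 negative. Microglia markers summed to 362 to 408 CPM in the MPH-sired and 363 to 413 CPM in the saline-sired libraries, with 5 of 10 negative. All these sums overlapped. As a percentage of the endothelial sum, Flna was at 27.5 to 28.7 in the MPH-sired and 36.1 to 37.5 in the saline-sired libraries, and as a percentage of the mural sum at 33.8 to 37.9 and 45.4 to 50.5. Neither ratio overlapped between the groups, nor did the ratio to microglia markers. Flna was picked for its lower values in the MPH-sired group, so ratios to overlapping sums repeat that choice and are no test. Fibroblast markers of vessels and meninges summed to 109.6 to 129 CPM in the MPH-sired and 109.8 to 229 CPM in the saline-sired libraries, highest in saline-sired library 3, with 8 of 12 negative. Relative to that sum Flna overlapped, at 58.4 to 64.4% in the MPH-sired and 43.0 to 80.2% in the saline-sired libraries. The sum is led by Pdgfra, which oligodendrocyte precursors also express, except in saline-sired library 3. There Igf2, a growth factor gene also abundant in choroid plexus, was at 133 CPM, against 53.9 and 21.2 CPM in saline-sired libraries 4 and 5. Without Igf2, an alternative added after the values were seen, Flna was at 74.8 to 84.7% of the sum in the MPH-sired and 95.8 to 102% in the saline-sired libraries, which did not overlap. The median fold change of these markers, -0.12, was 0.03 without MPH-sired library 4 and 0.03 without saline-sired library 4. The part of fibroblasts in the Flna level was not tested.

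**Figure D4:**
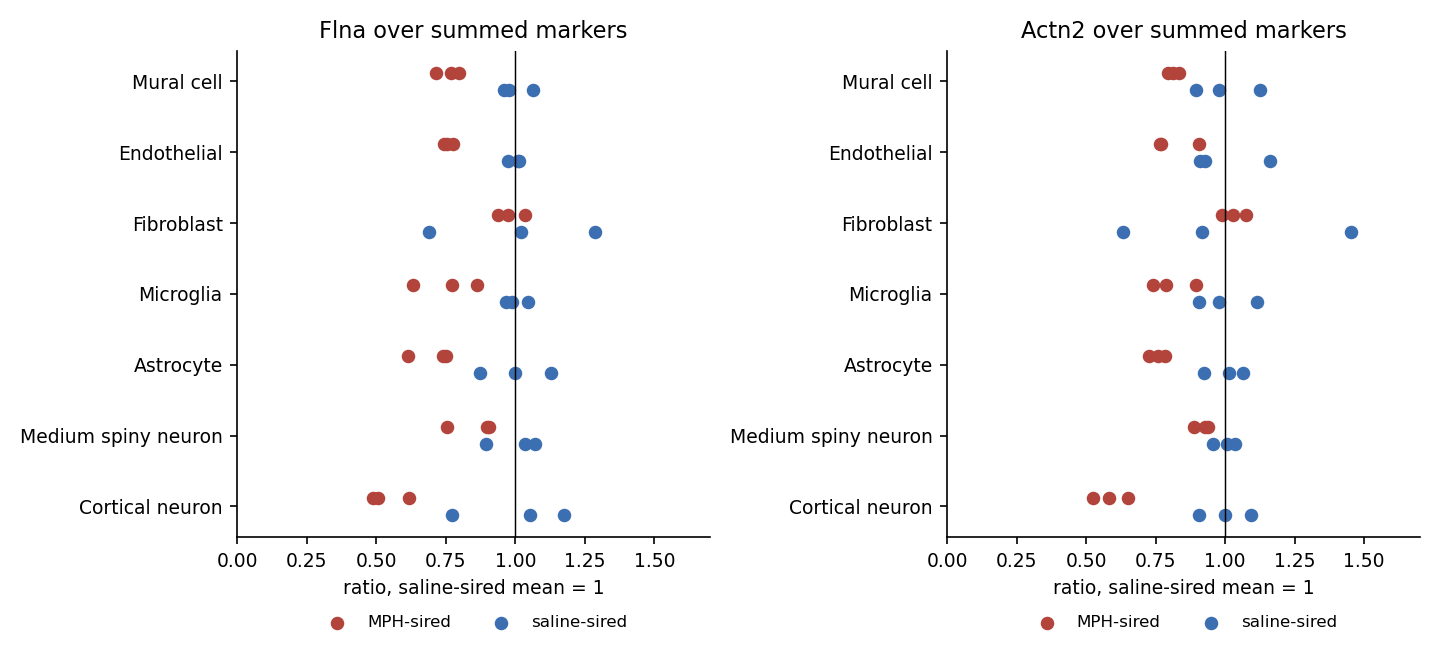
Flna (left) and Actn2 (right) divided by the summed CPM of 7 marker lists in the same library, scaled so that the saline-sired mean is 1; MPH-sired libraries are red and drawn above the blue saline-sired ones. The groups are separate for mural, endothelial, microglia, astrocyte and cortical neuron markers, and overlap for both genes over fibroblast markers (Igf2 included) and for Flna over medium spiny neuron markers. Both genes were picked for lower values in the MPH-sired group, so a separation here is no test.

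Other tissue sums give the setting of both genes. Choroid plexus markers summed to 261 to 367 CPM in the MPH-sired and 221 to 3135 CPM in the saline-sired libraries, where saline-sired library 3 was highest, with 11 of 11 negative. Astrocyte markers, led by Slc1a2, summed to 3769 to 4159 CPM in the MPH-sired and 3456 to 4061 CPM in the saline-sired libraries. Oligodendrocyte markers, led by Mbp, summed to 7727 to 10459 CPM in the MPH-sired and 7591 to 14273 CPM in the saline-sired libraries, with 9 of 9 negative (median -0.21). That median was 0.08 without saline-sired library 4 and 0.35 with the covariate for cortical markers. The choroid plexus median, -2.74, was -1.14 without saline-sired library 3, and 0.61 once library 4 of that group was left out too. All of these sums overlapped between the groups. With the mean log2 CPM of choroid plexus markers as a covariate, the log2 fold change of Flna was -0.39 and that of Actn2 -0.40. With saline-sired library 5 as the only one of its group, an alternative added after the values were seen, it was -0.31 for Flna and -0.41 for Actn2. No marker in these lists was at 0 in every library.

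The proteins that work with filamins and alpha-actinins were followed in 6 lists. None of their genes passed the edgeR test over all genes, where the median fold change of all genes tested was -0.01. Filamin partners had 15 positive and 6 negative fold changes among 21 tested of 22 (median 0.06, and 0.04 to 0.12 leaving out 1 library at a time). The 2 of lowest p were Cav1, the coat protein of caveolae, at 10.1 ± 0.391 CPM in the MPH-sired and 12.4 ± 0.269 CPM in the saline-sired group (SD, n = 3 each), and Map2k4, a stress kinase, at 163 ± 5.80 and 143 ± 8.98 CPM. Alpha-actinin partners at synapses had 13 positive and 7 negative among 20 (median 0.02). Their 2 of lowest p had the opposite sign to Actn2. The next by p, Adora2a at -0.23 (SE 0.06) and Kcna5 at -0.44 (SE 0.14), had the same sign as Actn2. Rph3a, a vesicle protein that also binds NMDA receptors, was at 457 ± 22.6 CPM in the MPH-sired and 366 ± 14.1 CPM in the saline-sired group (log2 fold change 0.32, SE 0.06). Grin2a, an NMDA receptor subunit, was at 174 ± 7.03 and 138 ± 13.8 CPM (log2 fold change 0.33, SE 0.08).

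The list of PDZ-LIM and Z-disc type partners had 4 positive and 12 negative fold changes among 16 tested of 20 (median -0.11). That median ran from -0.19 (without saline-sired library 5) to -0.04 (without saline-sired library 3) and was -0.05 without saline-sired library 4. It was positive with the cortical covariate (0.06), with the choroid plexus covariate (0.03) and without saline-sired libraries 3 and 4 (0.05). Csrp1, a LIM protein that binds alpha-actinin, was at 148 ± 20.3 CPM in the MPH-sired and 184 ± 29.8 CPM in the saline-sired group with overlapping groups, and Pdlim5, which tethers kinases to alpha-actinin, at 25.4 ± 0.586 and 28.8 ± 2.24 CPM. The muscle genes Myot, Myoz1 and Csrp3 were at 0 in every library. Among other actin crosslinkers and spectrins, 11 were positive and 13 negative of 24 (median -0.0020), with Dmd, the dystrophin gene, at a log2 fold change of 0.22 (SE 0.09) and Sptbn4, a spectrin of the axon initial segment, at -0.16 (SE 0.06). Focal adhesion genes had 9 positive and 11 negative of 20 (median -0.02), with the integrin gene Itgb3 at 0.71 (SE 0.19) and Ilk, the integrin-linked kinase gene, at -0.20 (SE 0.06). Genes of the serum response factor pathway had 5 positive and 12 negative of 17 tested (median -0.07), with the calponin gene Cnn2 at -0.54 (SE 0.19) and Tagln, a smooth muscle actin-binding protein, at -0.70 (SE 0.31). Tagln lay at 2.49 ± 0.976 CPM in the MPH-sired and 4.04 ± 0.649 CPM in the saline-sired group, and the groups did not overlap.

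**Figure D5:**
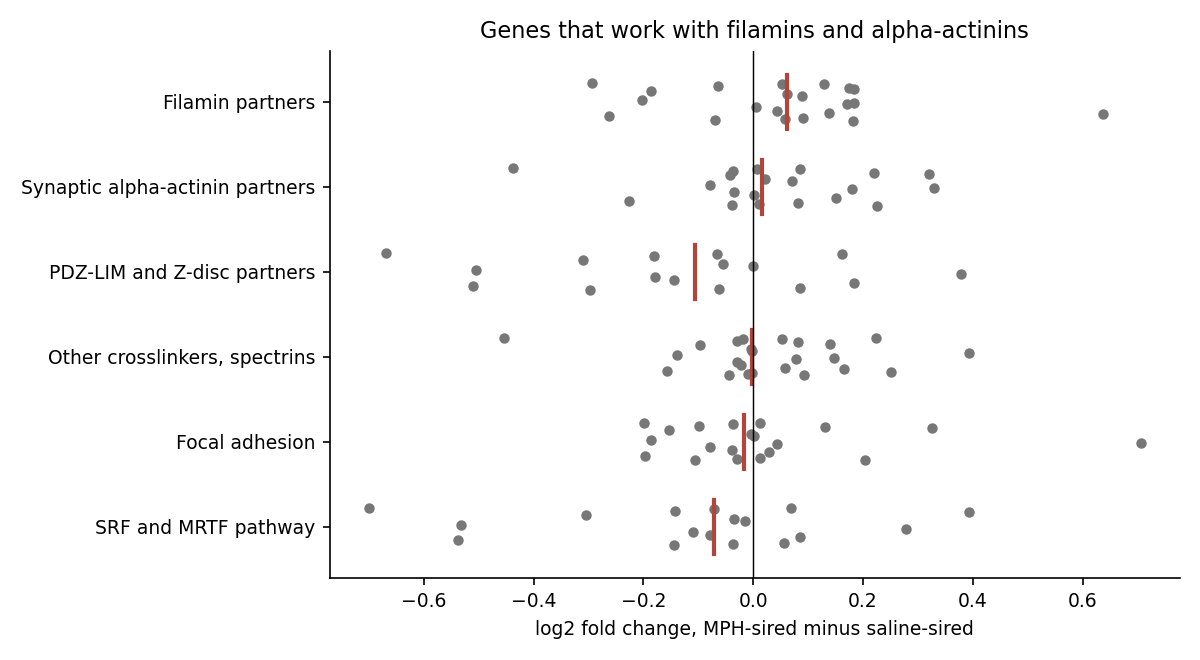
Log2 fold change, MPH-sired minus saline-sired, of each tested gene in 6 lists of genes that work with filamins and alpha-actinins (grey points, spread vertically only for legibility), with the list median as a red line. The medians run from -0.11 for the PDZ-LIM and Z-disc partners to 0.06 for the filamin partners, and points lie on both sides of 0 in every list; leaving out 1 library moves these 2 medians over -0.19 to -0.04 and 0.04 to 0.12.

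The genes most like each member over the 6 libraries were found by Pearson correlation of log2 CPM among genes whose average log2 CPM reached 3. These are descriptions over 6 points that include the group difference. Of 10220 genes, 167 exceeded 0.9 with Flna and 123 with Actn2, so the genes named are the top of many. Flna was closest to Atp11a, a phospholipid flippase (r = 0.998), Hmg20b (r = 0.996) and Cbx7, a Polycomb protein (r = 0.988). Atp11a lay at 119, 108 and 113 CPM in MPH-sired libraries 2, 4 and 6 and at 138, 139.8 and 129 CPM for saline-sired libraries 3, 4 and 5. Genes close to Actn2 included Kat7, a histone acetyltransferase (r = 0.998), and Prpsap2 (r = 0.988). Actn1 was closest to Ccsap, Pus10 and Odf2l (r = 0.991 to 0.996), and Actn4 to Egfl7, Zdhhc23 and H6pd (r = 0.980 to 0.983). For the low gene Flnc the closest were Txndc9, Med10 and Yod1 (r = 0.960 to 0.986). None is named for Actn3, whose log2 CPM in saline-sired library 5 came from 0 counts and was set by the prior count.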

How the data were processed

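The authors' deposited table gives whole-number read counts per RefSeq gene, not normalized, for 6 libraries. Per the submitters' processing notes, bcl2fastq 2.20.0, Trimmomatic, HISAT2 2.1.0 and StringTie 2.1.3b were used with build mm10. Neither their order and settings nor the use of strand in counting is stated. The 12 columns of normalized values were left aside. Column names give the group and a number that differs as a set from the numbers in the titles, so each column was tied to its group only. The labelled sex could therefore not be a covariate, and the summed level of Y-linked genes was used as one in an alternative.

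Genes kept by filterByExpr were scaled by TMM and tested in edgeR 4.0.16 under R 4.3.3 (glmQLFit, glmQLFTest). The p-values were adjusted by Benjamini-Hochberg over 17874 genes, with a threshold of 0.05. CPM values use TMM-scaled library sizes, and SE values are the absolute fold change over the square root of F. DESeq2 1.42.0, limma-voom (limma 3.58.1), other scalings, filters, covariates and left-out libraries were alternatives. A marker covariate was the mean log2 CPM of the tested genes of its list, each gene weighing the same. The edgeR fit was tested on simulated counts. Of 45777 Entrez Gene IDs, 45679 matched a RefSeq table of GRCm38.p6, the assembly mm10 names, which gave coordinates. Lengths and exon overlaps came from GENCODE vM21, and transcript matches from blastn 2.17.0 (expectation limit 1e-20). Counts limit the precision of Flnc and Actn3 most.

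The members and gene lists were chosen with earlier results of these data known. The motifs were chosen after the windows were read. Named genes are the members, the 2 of lowest unadjusted p in each list of partner genes, the most abundant gene of marker lists, and the 3 genes most correlated with each member but Actn3, leaving out predicted genes and pseudogenes. Some genes that this rule names are not reported here. No set test was run.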

Additional observations from a re-analysis of the deposited data

How the results depend on the processing

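The number of genes past the edgeR test, 4 in the fit reported, was 173 by DESeq2 (135 higher and 38 lower). It was 2 with the Y-linked, the choroid plexus or the mural marker level as a covariate and 1 with the cortical marker level. It was 0 without library 4 of each group (979 genes at an unadjusted p under 0.05) and 0 without saline-sired libraries 3 and 4 (958 such genes), both chosen after seeing the data. The second leaves 1 saline-sired library, so its spread comes from the MPH-sired libraries alone and library 5 is assumed to vary like them. Leaving out 1 library at a time gave 1 to 4, with 1 only without MPH-sired library 6. DESeq2 called Flna (-0.43) and Actn2 (-0.33), and no other alternative called a member. In every alternative fitted each member kept its sign. Leaving out 1 library at a time, the log2 fold change ran from -0.50 to -0.36 for Flna (edgeR adjusted p from 0.102 to 0.818) and from -0.36 to -0.28 for Actn2 (0.156 to 0.818). It ran from 0.06 to 0.30 for Flnc, -0.12 to -0.04 for Actn1, 0.43 to 1.54 for Actn3 and 0.04 to 0.14 for Actn4. With a covariate for cortical markers it was 0.49 for Flnc and 3.08 for Actn3. With saline-sired library 5 as the only one of its group, Actn3 had 0 counts in that group and no fold is given. Actn3 had too few counts for the filter of 1 CPM in 3 libraries. With coding length in place of transcript length, Actn2 took 27.7% of the alpha-actinin level in the MPH-sired and 32.2% in the saline-sired group, and Actn4 took 28.1% and 24.6%. Among list medians, the synaptic, focal adhesion, spectrin and crosslinker, mural, endothelial, microglia and astrocyte ones lay near 0 and changed sign in some alternatives. Those of the PDZ-LIM, fibroblast, oligodendrocyte and choroid plexus lists lay further from 0 and also changed sign in some. The causes of these shifts were not tested. No paired analysis was possible because the columns cannot be tied to the labels' replicate numbers and share 1 number between the groups.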
